A study of Homo sapiens with 12 samples.

Results

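The MTRNR2L entries are nuclear loci that resemble MT-RNR2, the mitochondrial gene of the 16S ribosomal RNA, and are named after the humanin reading frame inside it. The 10 entries MTRNR2L1 to MTRNR2L10 were chosen by symbol, with their share of the summed FPKM per library, by group and replicate number, as the quantity of interest. FPKM is a count of sequenced fragments divided by the transcript's length and the library's mapped fragments. In the table of the first experiment 9 of the 10 were found among 23284 symbols, and in the table of the knockout experiment 8 among 12421. MTRNR2L7 was listed at 0 in all 4 libraries of the first experiment and was not a row of the knockout table, and MTRNR2L9 was a row of neither. Because their levels by group were used in choosing them, the differences between groups below describe these entries and are not tests of them.

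RNA was taken from polysome fractions, the part of a sucrose gradient where RNAs loaded with several ribosomes run, from the human embryonic kidney line HEK293. Cells received 5 ug of vector or STING plasmid for 24 hours, and cycloheximide, which halts ribosomes, was added before lysis. A first experiment had a vector and a STING group, and a knockout experiment had both groups in wild-type cells and in PERK knockout cells, with 2 libraries in each of the 6 groups. STING (TMEM173) is an adaptor of DNA sensing, and PERK (EIF2AK3) is a kinase of the endoplasmic reticulum that slows translation initiation. The sources used here give neither the promoter of the plasmid nor the number of knockout clones. Whether replicates were separate cultures is not stated by the labels, and the spread between libraries may be technical. Polyadenylated RNA was primed with oligo-dT and amplified by Smart-seq2. Total RNA was not analysed here, so the amount of an RNA and its loading with ribosomes cannot be told apart, and neither can fewer expressing cells and less RNA per cell.

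Humanin is a short peptide known for protecting cells from apoptosis, and it was found as a reading frame within the 16S rRNA of mitochondria. Copies of mitochondrial DNA have been inserted into the nuclear genome many times, and the MTRNR2L loci are such copies in which a frame like that of humanin is still open. Mitochondrial rRNAs are transcribed in the mitochondrion by POLRMT, are built into the mitochondrial ribosome and can carry short adenine tails. Reads from the abundant mitochondrial rRNA and from a near-identical nuclear copy are hard to assign.

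The humanin-type frames are shown first because they show how closely the entries resemble the mitochondrial gene. They come from GENCODE 29 transcripts on GRCh38, matched by symbol, whereas the submitters' processing notes name hg19 for the deposited values. Each frame runs 5′ to 3′ on the coding strand from its start codon to its stop codon. Capitals mark bases that differ from MT-RNR2 at the same place, or that lie past the end of its frame. The 4 entries of the highest levels are shown with the lowest entry that had a value, MTRNR2L5, and with MTRNR2L7, which was listed at 0.
MT-RNR2: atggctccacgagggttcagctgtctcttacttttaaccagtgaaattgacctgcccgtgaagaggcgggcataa
MTRNR2L2: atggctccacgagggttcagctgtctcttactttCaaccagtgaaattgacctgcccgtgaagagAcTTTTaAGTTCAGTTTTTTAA
MTRNR2L8: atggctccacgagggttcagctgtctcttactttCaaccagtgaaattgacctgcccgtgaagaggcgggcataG
MTRNR2L1: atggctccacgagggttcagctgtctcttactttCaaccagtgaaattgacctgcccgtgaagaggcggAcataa
MTRNR2L10: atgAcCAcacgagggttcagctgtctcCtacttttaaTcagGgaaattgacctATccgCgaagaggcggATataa
MTRNR2L5: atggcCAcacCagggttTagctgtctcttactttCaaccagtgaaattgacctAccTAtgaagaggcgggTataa
MTRNR2L7: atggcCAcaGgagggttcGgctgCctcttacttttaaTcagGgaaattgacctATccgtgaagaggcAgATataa
MTRNR2L8 and MTRNR2L1 each differed from the MT-RNR2 frame at 2 bases of 75. MTRNR2L10 differed at 11, MTRNR2L5 at 9 and MTRNR2L7 at 12. MTRNR2L2 and MTRNR2L4 had a longer frame of 87 bases, with 28 codons before the stop against 24 in the others.

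All 10 loci were single-exon models. The transcript of MTRNR2L8 (GRCh38 chr11:10507887-10509189, minus strand) was 93.2% identical to MT-RNR2 over its best local alignment, and that of MTRNR2L1 (chr17:22523111-22524663, plus strand) was 88.8% identical. MTRNR2L10 (chrX:55181391-55182920, minus strand) was 81.2% identical, MTRNR2L7 (chr10:37601440-37602974, minus strand) 80.0% and MTRNR2L5 (chr10:55599303-55600041, plus strand) 78.2%. MTRNR2L2 (chr5:80650000-80650086, minus strand) is annotated there as a processed pseudogene with a model of 87 bases, too short to compare with the longer models, with 25.4% of its 25-base words in MT-RNR2. Exact matches bear more directly on reads. Among the longer models, 29.2% of the transcript's 25-base words also occurred in MT-RNR2 for MTRNR2L8, 11.5% for MTRNR2L1, 7.45% for MTRNR2L6, 5.38% for MTRNR2L10 and 2.44% for MTRNR2L3. MTRNR2L5 shared 1.68%, MTRNR2L4 0.690% and MTRNR2L7 0.662%. The longest exact run was 88 bases for MTRNR2L8 and 32 for MTRNR2L7.

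The STING transcript, TMEM173, followed the labels. Its FPKM was 14.9 and 13.8 in the vector libraries of the first experiment against 65157 and 69253 in the STING libraries. Wild-type cells of the knockout experiment had 23.1 and 36.7 against 41812 and 40660, and knockout cells 23.5 and 43.8 against 10512 and 7338. EIF2AK3 stood at the lowest value of the knockout table, 1, in 7 of 8 libraries, which gives no check of the knockout label. Of 8 HEK293 markers, 4 had a mean of at least 5 FPKM in each experiment. NEFM, a neurofilament marker of the line, was listed at 0 throughout the first experiment. The summed markers of blood cells, hepatocytes and fibroblasts reached at most 7.35, 4.54 and 0.335 FPKM in the first experiment from 5, 3 and 3 genes. The knockout table lists 1 marker of each type, and these reached at most 4.27, 8.79 and 1.75. Counts are not given, so the absolute depth is unknown.

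MTRNR2L entries were among the highest of all values. MTRNR2L2 ranked first of all symbols in each of the 8 libraries of the knockout experiment and between 2 and 8 in the first. MTRNR2L8 ranked between 2 and 9 in the knockout experiment and between 5 and 14 in the first. In each of the 12 libraries the order was MTRNR2L2, MTRNR2L8, MTRNR2L1, MTRNR2L10 and MTRNR2L3 from highest to lowest. MTRNR2L6 and MTRNR2L4 came next without a stable order, since MTRNR2L6 was the higher in each of the 4 libraries of the first experiment but in only 5 of 8 in the knockout experiment. MTRNR2L5 came last among entries with a value, at ranks between 1858 and 4830. FPKM divides by transcript length, and the lengths used for these entries are not stated, so the ranks and the order rest on unknown lengths. Ranks of the 2 experiments are also not on a shared scale, since 23284 symbols are listed in the first and 12421 in the knockout experiment.

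**Figure D1:**
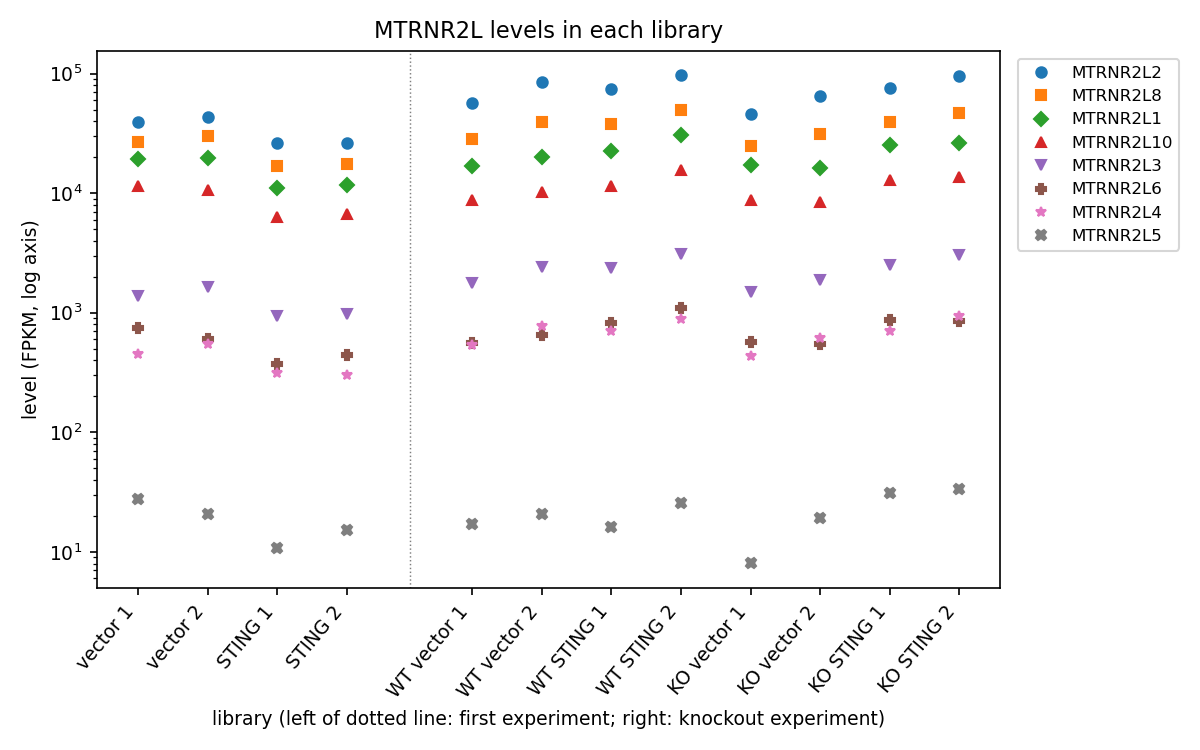
Level of each MTRNR2L entry with a value in each library, in FPKM on a log axis, with 1 point per library and no averaging. WT is wild-type, KO is PERK knockout, and the dotted line separates the first experiment from the knockout experiment. The order of the 5 highest entries is the same in all 12 libraries, and MTRNR2L5 lies far below the rest.

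In the first experiment every entry with a value was lower with STING. MTRNR2L2 had 39205 and 43662 FPKM in the vector libraries and 26411.3 and 26410.1 in the STING libraries. MTRNR2L8 had 26524 and 29833 in the vector libraries and 16986 and 17481 in the STING libraries. MTRNR2L1 had 19465 and 19763 in the vector libraries and 11029 and 11597 in the STING libraries. For every entry with a value except MTRNR2L5, both STING libraries lay below both vector libraries by a gap wider than the distance between replicates. For MTRNR2L5 the groups did not overlap either, but the gap was narrower than the distance between its vector replicates. MTRNR2L10 had 11426 and 10694 in the vector libraries and 6298 and 6683 in the STING libraries, and MTRNR2L3 1382 and 1648 in the vector and 933 and 983 in the STING libraries. MTRNR2L6 had 739 and 598 in the vector libraries and 371 and 443 in the STING libraries. MTRNR2L4, whose frame is among the longer ones, had 454 and 548 in the vector libraries and 310.4 and 304 in the STING libraries. MTRNR2L5 had 27.8 and 20.6 in the vector libraries and 10.8 and 15.4 in the STING libraries, a wider relative spread than any other entry in this experiment.

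Summed, the entries reached 102994 ± 5334 FPKM in the vector group and 63133 ± 1109 in the STING group (SD, n = 2 each), a ratio of 0.613 that lay between 0.584 and 0.644 for single pairs of libraries. All 8 entries with a value had groups that did not overlap, with STING lower, as had 32.8% of the 9464 genes tested. On the log2(FPKM + 1) scale the differences ran from -0.84 (SE 0.23) for MTRNR2L5 to -0.65 (SE 0.10) for MTRNR2L2, with -0.79 (SE 0.09) for MTRNR2L1 and -0.71 (SE 0.10) for MTRNR2L8. Their median was -0.71 against -0.05 over all genes tested. With limma 7 of the 8 passed an adjusted p of 0.05 as lower, all but MTRNR2L5, beside 9.29% of all genes as lower and 11.8% in either direction. Without STING library 1, and likewise without STING library 2, the calls were lost for the entries and for most other genes, while all 8 stayed lower. Their log2 differences then ran from -0.76 to -0.59 without STING library 1 and from -1.08 to -0.65 without STING library 2.

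The direction over all genes called in this experiment depended on the scaling and on other settings. With no trend and no robust estimation 41.2% of 17 genes called were lower. The split also turned to mostly higher when STING library 1 or STING library 2 was left out. Of 1117 genes called, 78.7% were lower with the values as deposited, and 67.2% of 958 with median-of-ratios scaling. When each library was divided by its summed FPKM without the members and TMEM173, 26.3% of 1040 were lower. The values as deposited were not divided by a sum here, so this setting, called leaving the members out of the scaling, also adds that division. Over all symbols the sum was 2801940 and 2508730 with vector and 2159860 and 2110170 with STING. That last scaling moved the median over all genes from -0.05 to 0.24, and the part of each change was not tested. The 8 entries were lower under each of these scalings, with medians of -0.63 and -0.36 under the last 2. Relative to the median over all genes their median was -0.66 as deposited, -0.65 with median-of-ratios scaling and -0.60 with the members left out.

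In wild-type cells of the knockout experiment all 8 entries had a higher mean with STING, but most groups overlapped. MTRNR2L2 had 56945 and 84477 FPKM in the vector libraries and 74857 and 96884 in the STING libraries. MTRNR2L8 had 28444 and 39186 in the vector libraries and 37711 and 49404.5 in the STING libraries. For both entries the lower STING library lay below the higher vector library. MTRNR2L1 had 17007 and 20030.1 in the vector libraries and 22648 and 30552 in the STING libraries. MTRNR2L10 had 8735 and 10165 in the vector libraries and 11461 and 15465 in the STING libraries, and MTRNR2L6 554 and 656 in the vector and 814 and 1099 in the STING libraries. MTRNR2L1, MTRNR2L10 and MTRNR2L6 were thus the 3 of 8 whose groups did not overlap, with STING higher, as in 3.31% of the 12254 genes tested. MTRNR2L5 had 17.1 and 20.6 in the vector libraries and 16.1 and 25.7 in the STING libraries, with the lowest and the highest of these 4 values both in the STING group. MTRNR2L3 had 1789 and 2408 against 2378 and 3094, and MTRNR2L4 542 and 775 against 706 and 886, both with overlapping groups.

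The sum in wild-type cells was 135875 ± 30891 FPKM in the vector group and 174000 ± 33106 in the STING group (SD, n = 2 each), and these groups overlapped. Log2 differences ran from 0.11 (SE 0.38) for MTRNR2L5 to 0.65 (SE 0.20) for MTRNR2L6, with a median of 0.38 against -0.27 over all genes tested. With limma 0 of 8 passed, beside 0.00816% of all genes, which is 1 gene. At an unadjusted p under 0.05 there were 3 of the 8 entries and 1570 of all genes. On the log2(FPKM + 1) scale MTRNR2L5 turned lower with STING without vector library 1 (-0.02) or without STING library 2 (-0.21), and the other 7 stayed higher.

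In PERK knockout cells both STING libraries lay above both vector libraries for each of the 8 entries. MTRNR2L2 had 46005 and 64416 FPKM in the vector libraries and 76312 and 94691 in the STING libraries. MTRNR2L8 had 24947 and 31107 in the vector libraries and 39137 and 47194 in the STING libraries. MTRNR2L1 had 17313 and 16092 in the vector libraries and 25079 and 26353.5 in the STING libraries. MTRNR2L3 had 1499.6 and 1884 against 2502 and 3063, MTRNR2L4 433 and 611 against 702 and 947, and MTRNR2L6 567 and 546 against 868 and 851. MTRNR2L1 and MTRNR2L6 had close replicates in both groups, whereas the replicates of MTRNR2L2 lay far apart. MTRNR2L10 had 8829 and 8418 in the vector libraries and 12767 and 13550.3 in the STING libraries. MTRNR2L5 had 8.05 and 19.1 in the vector libraries and 31.2 and 33.6 in the STING libraries, with a vector group that was itself spread by more than 2 times.

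The sum in knockout cells was 111347 ± 16611 FPKM in the vector group and 172041 ± 20709 in the STING group (SD, n = 2 each), a ratio of 1.55 that lay between 1.28 and 1.87 for single pairs of libraries. Groups that do not overlap, with STING higher, were found for 8 of 8 entries and for 5.66% of all genes tested. Log2 differences were 0.64 (SE 0.28) for MTRNR2L2, 0.63 (SE 0.25) for MTRNR2L8, 0.62 (SE 0.21) for MTRNR2L1 and 1.31 (SE 0.38) for MTRNR2L5, with a median of 0.63 against -0.11 over all genes. With limma 0 of 8 passed, beside 0.00816% of all genes, and at an unadjusted p under 0.05 there were 7 of the 8 entries and 944 of all genes. Median-of-ratios scaling moved the median over all genes from -0.27 to 0.06 in wild-type cells and from -0.11 to 0.04 in knockout cells. Relative to that median, the median of the entries was 0.65 as deposited and 0.71 so scaled in wild-type cells, and 0.74 and 0.78 in knockout cells. The level of the STING transcript in knockout cells was lower than in wild-type cells, as given above, and its part in these values was not tested.

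**Figure D2:**
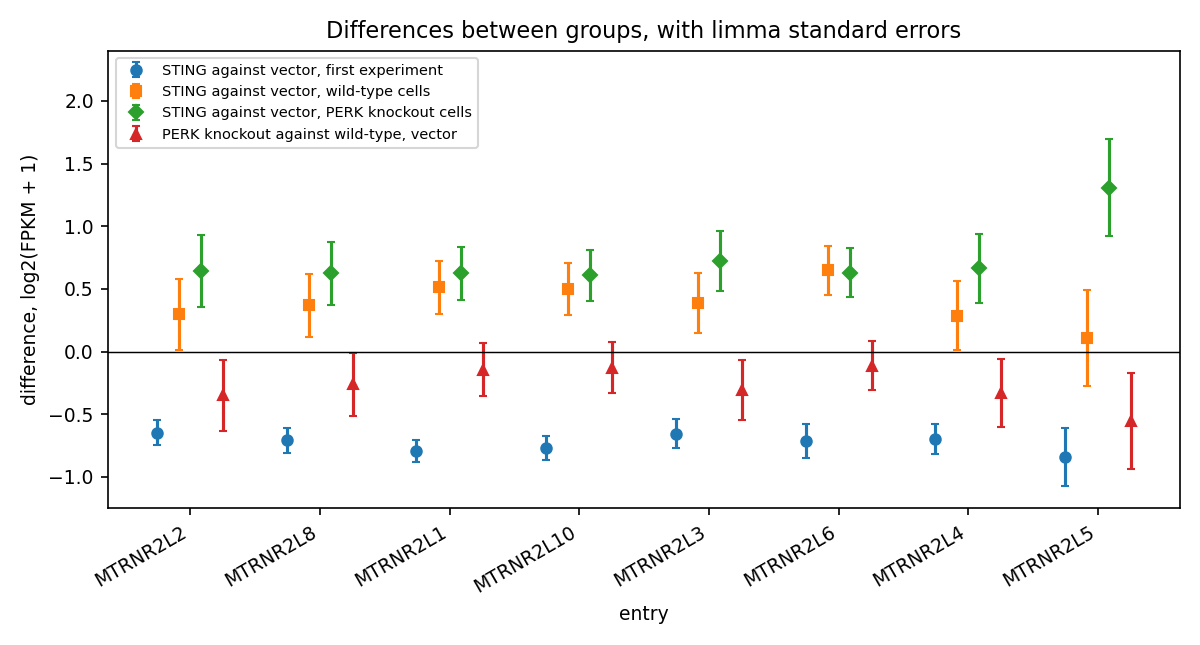
Difference in log2(FPKM + 1) for each MTRNR2L entry with a value in 4 comparisons, with limma standard errors as bars and the line at 0 for no difference. The first experiment lies between -0.84 and -0.65 and both STING comparisons of the knockout experiment lie above 0, and the tables of the 2 experiments were fitted separately.

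The difference of the STING effects, knockout minus wild-type, was between -0.02 (SE 0.28) for MTRNR2L6 and 1.20 (SE 0.54) for MTRNR2L5 in log2. None of the 8 entries passed with limma, beside 0% of 12254 genes, and at an unadjusted p under 0.05 there were 0 of the 8 entries and 474 genes. With 2 libraries a group this does not show that the effects were alike. MTRNR2L2 gave 0.35 (SE 0.40) and MTRNR2L1 0.11 (SE 0.30). Both STING effects share the spread estimate of the 8 libraries.

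With vector alone, knockout cells had lower means than wild-type cells for all 8 entries, with log2 differences from -0.55 (SE 0.38) for MTRNR2L5 to -0.12 (SE 0.20) for MTRNR2L6. The groups overlapped for each of the 8, whereas 25.8% of all genes had groups that did not overlap with knockout lower. With limma 0 of 8 passed, beside 0.049% of all genes, and 0 of 8 at an unadjusted p under 0.05 against 1516 of all genes. Median-of-ratios scaling turned MTRNR2L1, MTRNR2L6 and MTRNR2L10 to higher in knockout cells, as did leaving out wild-type vector library 2 for MTRNR2L6 and knockout vector library 1 for MTRNR2L5. With STING, the sum was 174000 FPKM in wild-type and 172041 in knockout cells, closer together than the replicates of either group.

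The share of the summed FPKM held by the entries was 3.54% and 4.26% in the vector libraries of the first experiment, and 2.89% and 3.03% in its STING libraries. It was 8.87% and 14.3% in wild-type vector libraries 1 and 2 of the knockout experiment, and 12.1% and 16.7% in wild-type STING libraries 1 and 2. It was 7.22% and 10.3% in knockout vector libraries and 11.7% and 15.9% in knockout STING libraries. Library 2 had the higher share in each of the 6 groups. Between libraries of the same number the summed entries with STING were 1.32 and 1.25 times those with vector in wild-type cells. In knockout cells they were 1.58 and 1.52 times those with vector. In wild-type cells vector library 2 had a higher share than STING library 1. The shares of the 2 experiments are not on a shared scale, because the tables list different symbols.

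MIR4461, a micro RNA entry that was a row of the first table alone, held a large part of the first table's sum. It had 1248480 and 1068800 FPKM in the vector libraries and 791555 and 771596 in the STING libraries, which is 44.6%, 42.6%, 36.6% and 36.6% of the sum. Its hairpin of 74 bases shares an exact run of 32 bases with the mitochondrial gene MT-ND4L, on the opposite strand, by GENCODE 29. Without it the entries held 6.39% and 7.41% with vector and 4.56% and 4.78% with STING. Over the symbols that both tables list, they held 6.74% and 7.99% with vector and 4.82% and 5.14% with STING. Within the first experiment the STING libraries were lower than the vector libraries by each of these denominators.

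**Figure D3:**
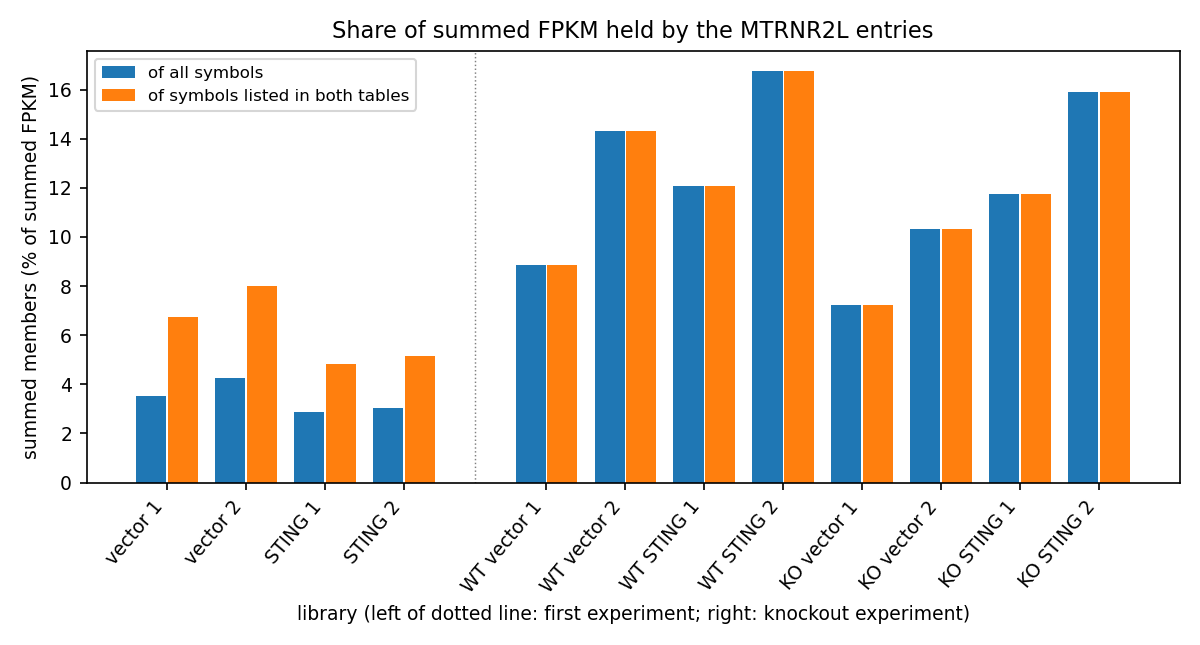
Share of the summed FPKM held by the MTRNR2L entries in each library, in percent, over all symbols of the table and over the symbols that both tables list; WT is wild-type, KO is PERK knockout. Library 2 is above library 1 in each of the 6 groups, and the STING libraries are lower in the first experiment and mostly higher in the knockout experiment.

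Level went broadly with exact sequence shared with MT-RNR2. MTRNR2L8 and MTRNR2L1, whose frames above differ at 2 bases each, had a median of 22003 and 15531 FPKM over the first experiment and of 38424 and 21339 over the knockout experiment. MTRNR2L10, with 5.38% of its 25-base words in MT-RNR2, had a median of 8689 and 10813. MTRNR2L6 did not keep to that order, with 7.45% of words shared but a median of only 520.2 and 735. MTRNR2L5 shared more words than MTRNR2L4 and had a median of 18.0 and 19.9 against 382 and 704. MTRNR2L7 shared 0.662% of words, close to 0.690% for MTRNR2L4, and was listed at 0 throughout the first experiment. The 8 entries with a value share sequence with each other and a library, so no correlation is given. The sources used here do not say how the authors handled reads that match several places, and the part of mitochondrial rRNA reads in these values was not tested. None of the mitochondrially encoded RNAs, MT-RNR2 included, was a row of either table under its symbol.

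**Figure D4:**
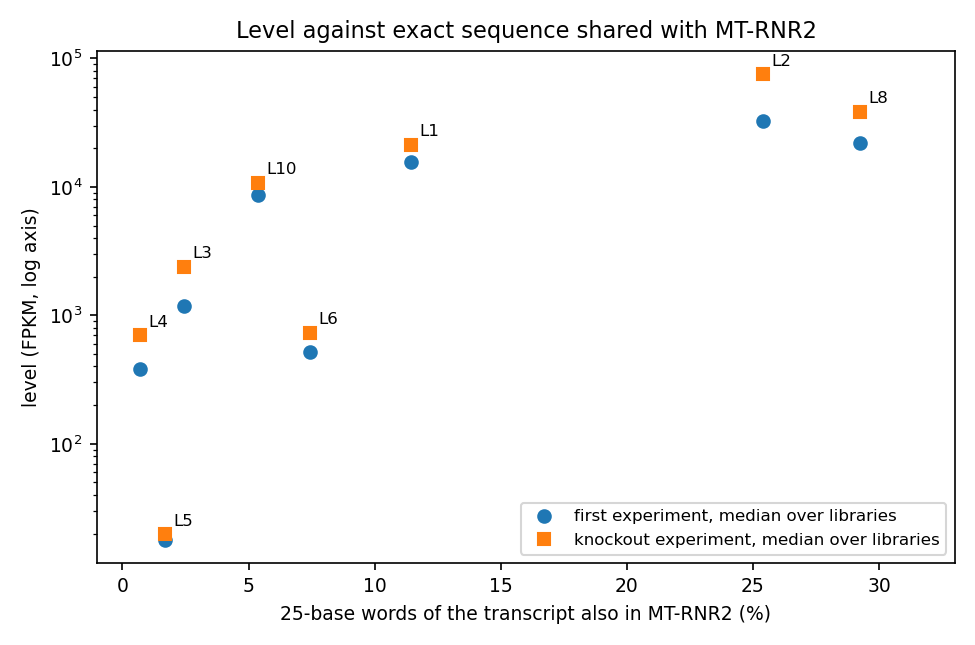
Median level of each MTRNR2L entry with a value over the libraries of an experiment, in FPKM on a log axis. It is set against the share of the entry's 25-base words that also occur in MT-RNR2, in percent. L1 to L10 stand for MTRNR2L1 to MTRNR2L10. MTRNR2L8 lies at the right with a high level, and MTRNR2L6 lies below MTRNR2L10 although it shares more words. MTRNR2L2 also lies at the right, but its model of 87 bases is too short to compare with the longer models.

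Within the family the make-up differed between experiments and, for some entries, between libraries. Like the ranks, these percentages rest on transcript lengths that are not stated. MTRNR2L2 made up between 39.5% and 42.4% of the summed entries in the first experiment and between 46.2% and 53.6% in the knockout experiment, and MTRNR2L8 between 26.7% and 27.9% and between 24.8% and 25.3%. MTRNR2L1 made up between 17.7% and 19.6% in the first and between 12.7% and 17.4% in the knockout experiment. The levels of MTRNR2L10 and MTRNR2L1 kept close to 1 ratio in the knockout experiment, with MTRNR2L10 between 50.6% and 52.3% of MTRNR2L1, a highest ratio 1.03 times the lowest. MTRNR2L6 against MTRNR2L1 varied by 1.11 times, MTRNR2L4 against MTRNR2L2 by 1.09 times and MTRNR2L8 against MTRNR2L3 by 1.08 times. Ratios across these pairs varied more. MTRNR2L1 lay between 23.7% and 37.6% of MTRNR2L2, which is 1.59 times, with the lowest value in wild-type vector library 2 and the highest in knockout vector library 1.

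The pairs of steadiest ratio differed between experiments. In the first experiment the steadiest pair was MTRNR2L2 and MTRNR2L8, which varied by 1.06 times and have 41 exact 25-base words and a run of 65 bases in common. MTRNR2L1 and MTRNR2L8 have 138 exact 25-base words in common and their ratio varied by 1.36 times in the knockout experiment, whereas MTRNR2L1 and MTRNR2L10, the steadiest pair there, have 33 in common and varied by 1.03 times. MTRNR2L2 and MTRNR2L4, the entries with the frame of 87 bases, have 1 word in common. In the first experiment MTRNR2L10 was between 54.1% and 58.7% of MTRNR2L1. Over the 28 pairs of entries, Pearson correlations of levels ran from 0.759 to 0.999 over the 4 libraries of the first experiment and from 0.636 to 0.999 over the 8 of the knockout experiment, as a description of libraries that share one scaling per table. MTRNR2L5 varied most, by 2.58 times between its lowest and highest library in the first experiment and 4.18 times in the knockout experiment, against 1.65 and 2.11 times for MTRNR2L2.

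**Figure D5:**
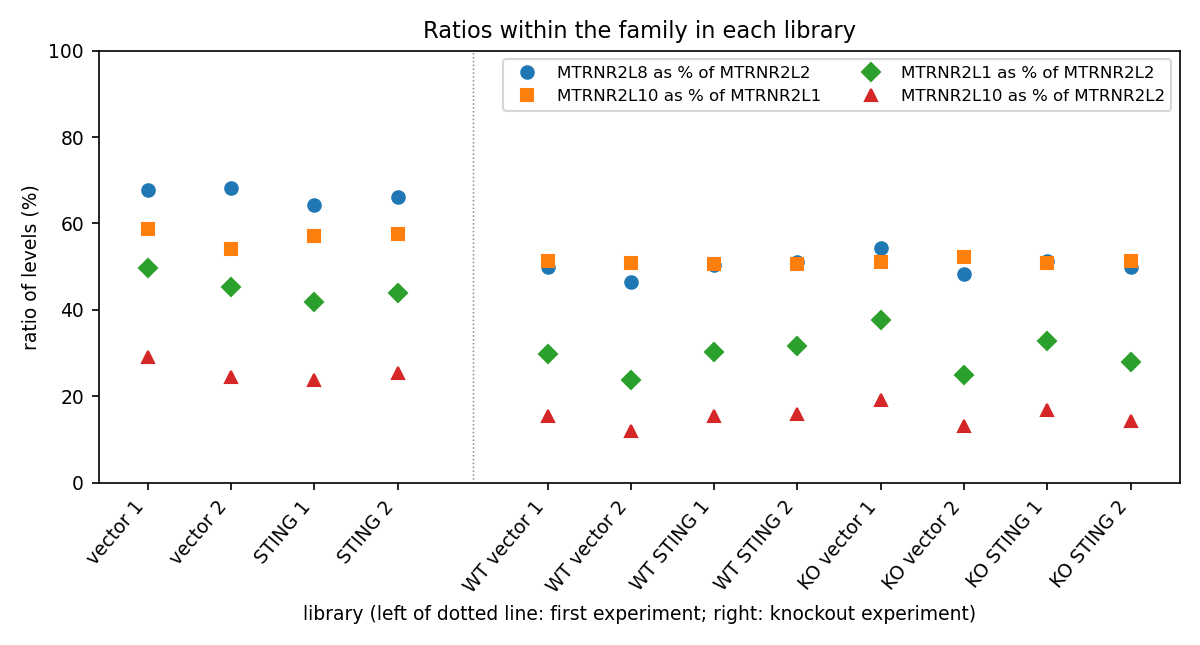
Ratios between levels of MTRNR2L entries in each library, in percent, with WT for wild-type and KO for PERK knockout. MTRNR2L10 stays between 50.6% and 52.3% of MTRNR2L1 across the 8 libraries of the knockout experiment, while MTRNR2L1 and MTRNR2L10 move against MTRNR2L2.

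Genes that act with humanin or make and handle mitochondrial rRNA, and other abundant structured RNAs, were not used in choosing the entries. In the first experiment 6 of 57 tested passed with limma, 2 higher and 4 lower with STING, which is near the 11.8% over all genes. Of 6 tested receptors and partners of humanin, 1 rose: TRIM11, a ubiquitin ligase that binds humanin, had 6.21 and 6.47 FPKM in the vector libraries and 12.2 and 11.9 in the STING libraries (log2 difference 0.83, SE 0.19, limma adjusted p = 0.0306). Both STING libraries lay above both vector libraries, as in 24.2% of the 9464 genes tested. BAX and BID, named here after their values were seen, are pro-apoptotic proteins that humanin binds and did not pass (log2 differences -0.57 and -0.45, SE 0.16 and 0.13, limma adjusted p = 0.0618 and 0.0635).

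Of 10 genes of mitochondrial transcription 1 fell: MRPL12, a ribosomal protein that also binds POLRMT, had 995 and 1118 FPKM in the vector libraries and 648 and 681 in the STING libraries (log2 difference -0.67, SE 0.10, limma adjusted p = 0.00749). Of 17 genes of mitochondrial RNA processing and decay 1 fell: HSD17B10, a subunit of mitochondrial RNase P, from 488 ± 35.5 to 348 ± 1.67 (SD, n = 2 each; log2 difference -0.49, limma adjusted p = 0.0229). Of 20 genes of rRNA modification and large-subunit assembly 2 fell. MTG1, a GTPase of mitochondrial ribosome assembly, went from 45.2 ± 4.78 to 24.5 ± 2.33 and RPUSD3, a pseudouridine synthase-like protein, from 386 ± 15.9 to 274 ± 3.16 (log2 differences -0.86 and -0.49, limma adjusted p = 0.0161 and 0.0205). Of 4 tested abundant structured RNAs 1 rose: RPPH1, the RNA of nuclear RNase P, from 127 ± 18.8 to 186 ± 8.69 (log2 difference 0.55, limma adjusted p = 0.0367).

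The 6 calls were lost when STING library 1 or STING library 2 was left out, as were most calls over all genes. TRIM11 was also lost without either vector library. With the members left out of the scaling the split turned to 4 higher and 0 lower: TRIM11 and RPPH1 passed as higher, as did POLRMT and TFB2M of mitochondrial transcription, named here after their values were seen, and the 4 that fell missed the threshold.

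In the knockout experiment 0 of 55 tested genes of these lists passed with limma in any of the 4 comparisons, beside the shares over all genes given above. At an unadjusted p under 0.05 there were 12 for STING in wild-type cells, 7 for STING in knockout cells, 3 for the difference of the STING effects and 12 for knockout against wild-type with vector. TRIM11 in wild-type cells had 16.6 and 19.2 in the vector libraries and 10.4 and 13.8 in the STING libraries (log2 difference -0.54, SE 0.22, limma adjusted p = 0.384), the opposite side to the first experiment, a difference that was not tested. TFAM, which packages mitochondrial DNA and activates its transcription, had 19.0 and 20.1 FPKM in the vector libraries and 9.60 and 9.86 in the STING libraries in wild-type cells. In knockout cells it had 8.91 and 10.98 in the vector libraries and 9.55 and 9.40 in the STING libraries. Both vector libraries of wild-type cells lay above the other 6, with a log2 difference of -0.94 (SE 0.19, limma adjusted p = 0.384) for STING in wild-type cells and -0.92 (SE 0.19, adjusted p = 0.169) for knockout against wild-type with vector. Groups that did not overlap, with STING lower in wild-type cells, were found for 52.3% of all genes tested. With knockout lower in the vector groups they were found for 25.8%. SLIRP, which stabilises mitochondrial mRNAs with LRPPRC, had 4304 and 3729 in the vector libraries and 3749.9 and 3643 in the STING libraries in wild-type cells, and 3202 and 3068 in the vector and 2283 and 1866 in the STING libraries in knockout cells (log2 difference -0.60, SE 0.18, adjusted p = 0.513). MRPL12 had 603 and 440.0 in the vector libraries and 363 and 307 in the STING libraries in wild-type cells (log2 difference -0.62, SE 0.20, adjusted p = 0.384).

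The genes whose levels went most closely with the summed entries were found by Pearson correlation over libraries within each table. Over the 4 libraries of the first experiment KIAA1191, RPUSD3, TMEM223, GM2A and TSEN15 came first of 5170 genes, each with a correlation that rounds to 1.00. KIAA1191 had a mean of 191 FPKM with vector and 125 with STING, and GM2A, the GM2 ganglioside activator protein, 16.4 and 5.82. Over the 8 libraries of the knockout experiment ATF3 came first of 6314 genes with 0.913. ATF3, a stress-induced transcription factor, had a mean of 18.4 with vector and 27.4 with STING in wild-type cells, and of 13.2 and 21.8 in knockout cells. HIST1H4A, CRKL, ACBD3 and BLOC1S3 followed with 0.841, 0.807, 0.796 and 0.794. These correlations are descriptions of a few libraries that share a scaling, with no test.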

How the data were processed

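Polysome-fraction RNA was measured in 12 libraries. For the first experiment the authors deposited FPKM values, and the submitters' processing notes name TopHat2 2.1.1, Cufflinks 2.2.1 and hg19. The deposited table of the knockout experiment names no unit and was read as FPKM with a lowest value of 1, from its values. The sources used here do not state the annotation, the filters or the treatment of reads with several matches. Groups and replicate numbers came from the sample titles. Each table was fitted alone on log2(FPKM + 1) with limma 3.58.1 (R 4.3.3), over the 9464 and 12254 genes that varied and averaged 1 or more, with intensity trend and robust estimation, two-sided, and Benjamini-Hochberg adjustment at 0.05. In the knockout table, whose lowest value is 1, the filter on the mean removed no gene. Its shares over all genes thus include genes close to that value. Scripts were tested on simulated data. Sequences were taken from GENCODE 29 and aligned with Biopython 1.88. Named list genes are up to 4 called per list with the largest difference or, where none was called, some of the 3 with the highest mean. Genes of like pattern are the 5 with the highest Pearson correlation of log2 values with the summed members, among genes that averaged 5 or more and were never at the lowest value. The members and lists were chosen with earlier results of these data known. Alternatives changed the pseudocount, the filter, the scaling, the variance model, the replicate block, the libraries and the denominator of the shares.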

Additional observations from a re-analysis of the deposited data

Results flagged for a closer look

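The summed MTRNR2L entries went in opposite directions in the 2 experiments. STING against vector gave a log2 difference of -0.71 in the first experiment, with both STING libraries below both vector libraries, and of 0.63 in PERK knockout cells, with both STING libraries above both vector libraries. The difference between the 2 was not tested, since the tables were made and fitted separately. In the first experiment the knockout line was not used, so cell line and experiment cannot be told apart in this contrast; wild-type cells of the knockout experiment gave 0.36, with groups that overlapped.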

How the results depend on the processing

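In the first experiment the count of all genes called went from 1117 to 580 with no filter on the mean and to 17 with no trend and no robust estimation. The count of members called went from 7 to 4 with median-of-ratios scaling, to 3 with the members left out of the scaling and to 0 with no trend and no robust estimation. The count of list genes called went from 6 to 11 with a mean of at least 5, to 2 with no filter, to 3 with median-of-ratios scaling and to 0 with no trend and no robust estimation. For STING in knockout cells 2 genes in place of 1 were called with the members left out of the scaling. For knockout against wild-type with vector the count went from 6 to 32 with a mean of at least 5, to 53 with median-of-ratios scaling and to 0 with no trend and no robust estimation. The cause was not tested.

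The mean share held by the entries in the first experiment was 3.90% with vector and 2.96% with STING. It was 7.10% and 4.77% without small RNA entries. By 2 denominators chosen after seeing the data it was 6.90% and 4.67% without MIR4461, and 7.36% and 4.98% over the symbols of both tables.

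With the replicate number as a block, 12 list genes were called in the first experiment, 2 genes for STING in knockout cells and 105 for knockout against wild-type with vector. Deviations of same-numbered libraries correlated at 0.074 in the first experiment and between 0.042 and 0.529 in the knockout experiment, where 5 of 6 pairs of groups exceeded 0.1. With 2 numbers and no label that ties a number to a batch, it is not shown that the numbers pair the libraries. Members called went from 7 to 8 in the first experiment with the block, while all genes called went from 1117 to 1587. Members called stayed at 0 in the 4 comparisons of the knockout experiment. At an unadjusted p under 0.05, members went from 3 to 7 for STING in wild-type cells and all genes from 1570 to 2973. For STING in knockout cells members went from 7 to 8 and all genes from 944 to 1595. For the difference of the STING effects members went from 0 to 5 and all genes from 474 to 962. For knockout against wild-type with vector members went from 0 to 4 and all genes from 1516 to 2423.

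Leaving out each library in turn gave between 38 and 818 genes, between 0 and 7 members and between 0 and 6 list genes called in the first experiment. It gave between 1 and 2 genes for STING in wild-type cells, between 1 and 3 for STING in knockout cells, 0 for the difference of the STING effects and between 0 and 3 for knockout against wild-type with vector, and 0 members and 0 list genes in each of these 4. The log2 difference of the sum ran from -0.76 to -0.65 in the first experiment, from 0.13 to 0.60 in wild-type cells, from 0.48 to 0.78 in knockout cells and from -0.51 to -0.04 for knockout against wild-type with vector. Where 1 library of a group was left, it was assumed to vary like the other groups. With 2 libraries a group and no counts, depth cannot be set beside these values.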
